A study of Mus musculus with 12 samples.

Results

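The expression of 9 genes of hematopoietic stem and progenitor cells (Cd34, Kit, Myb, Myc, Cebpa, Gfi1, Hoxa9, Meis1 and Lmo2) was followed through 4 dendritic cell (DC) populations of mouse bone marrow (BM). The genes were chosen by name, with earlier results of these data known, and Ensembl identifiers of the bulk RNA-sequencing table were matched to symbols. All 9 were found among the 21754 genes of the table, and each averaged 1 count or more per library, so that all 9 belonged to the 15293 genes tested and none had to be flagged for a low mean. Lowest of all was Gfi1, with a mean count of 2.17.

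The 4 populations were sorted from BM of wild-type C57BL/6 mice, an inbred laboratory strain, and the study used adult animals of both sexes. Cells carrying surface markers of mature lineages were depleted before the sort. Within CD11c+ cells, Siglec-H- pre-cDCs (precursors committed to conventional DCs, or cDCs), Siglec-H+CCR9-lo B220-lo cells ("lo-lo"), Siglec-H+CCR9-lo B220-hi cells ("lo-hi") and CCR9-hi B220-hi plasmacytoid DCs (pDCs) were gated, and the comparison asks how the 2 CCR9-lo precursor fractions stand between pre-cDCs and pDCs. The paper describes lo-lo cells of this gate as heterogeneous. In its single-cell data some were high in Ly6d, while others lacked it and grouped with pre-cDCs, and flow cytometry found Zbtb46 in a subset. Each population gave 3 SCRB-seq libraries, in which mostly the 3' ends of polyadenylated transcripts are read. The study's figure legend speaks of individual mice, whereas its methods pooled BM of several sex- and age-matched mice for sorts of precursors. The p-values measure the spread between these libraries, which may in part be technical.

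The population of a library needs a word before any value. The table names its columns only by well, A1 to A12, and the deposited labels run in blocks of 3 wells per population. The order of 28 transcription factors in the study's source data gives another assignment, in which wells A1, A5 and A9 are pre-cDCs, A2, A6 and A10 lo-lo cells, A3, A7 and A11 lo-hi cells, and A4, A8 and A12 pDCs, each in the order of replicates 1, 2 and 3. All 12 wells ranked the 378 pairs of these factors exactly like the sample they are given to, with 0 pairs in another order, and differed from the next best sample in at least 7 pairs. None of the 9 progenitor genes is among the 28 factors. The label names the matched population in only 4 of the wells, namely A1, A6, A7 and also A12, whereas in the other 8 it names another population. The matched assignment is used here throughout, and the values under the deposited labels stand beside the counts below. Total counts ranged from 1801463 to 5995971 per library, with a median of 3087455, and a count of 3, taken as the floor of detection, came to 0.511 to 1.65 CPM (counts scaled by the TMM method to 1000000 per library). This floor covers counting error only.

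Hematopoietic stem cells and multipotent progenitors are recognized by surface proteins such as the sialomucin CD34 and the receptor tyrosine kinase Kit, which binds stem cell factor. Their transcription factors fall into families with distinct tasks: Myb maintains progenitor proliferation and lymphoid potential, Myc drives growth and cell cycle entry, C/EBPα (Cebpa) and Gfi1 direct myeloid and granulocytic differentiation, and Hoxa9, its cofactor Meis1 and the LIM-domain adaptor Lmo2 belong to the circuitry of self-renewing cells. DCs arise from Flt3+ progenitors in the BM, and many genes of stem and progenitor cells are turned down as blood cells mature.

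Of the 9 genes, 5 differed among the 4 populations at an adjusted p under 0.01 (Cd34, Kit, Myb, Myc and Lmo2) by the quasi-likelihood test of edgeR, and 19.9% of all genes tested did so. Each of the 5 had its own course. By their means, Cd34 fell from pre-cDCs through lo-lo and lo-hi cells to pDCs, and Kit was lowest in pDCs. Myc was high only in pre-cDCs among these populations, Myb was highest in the CCR9-lo precursors, and Lmo2 was highest in pDCs. Cebpa, Gfi1, Hoxa9 and Meis1 did not pass the test in any comparison of this fit, which has no term for the replicate. With the replicate number as a block in the edgeR fit, Hoxa9 passed for lo-lo cells against pre-cDCs (adjusted p = 0.00747). Meis1 then passed for pDCs against pre-cDCs (adjusted p = 0.00971).

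**Figure D1:**
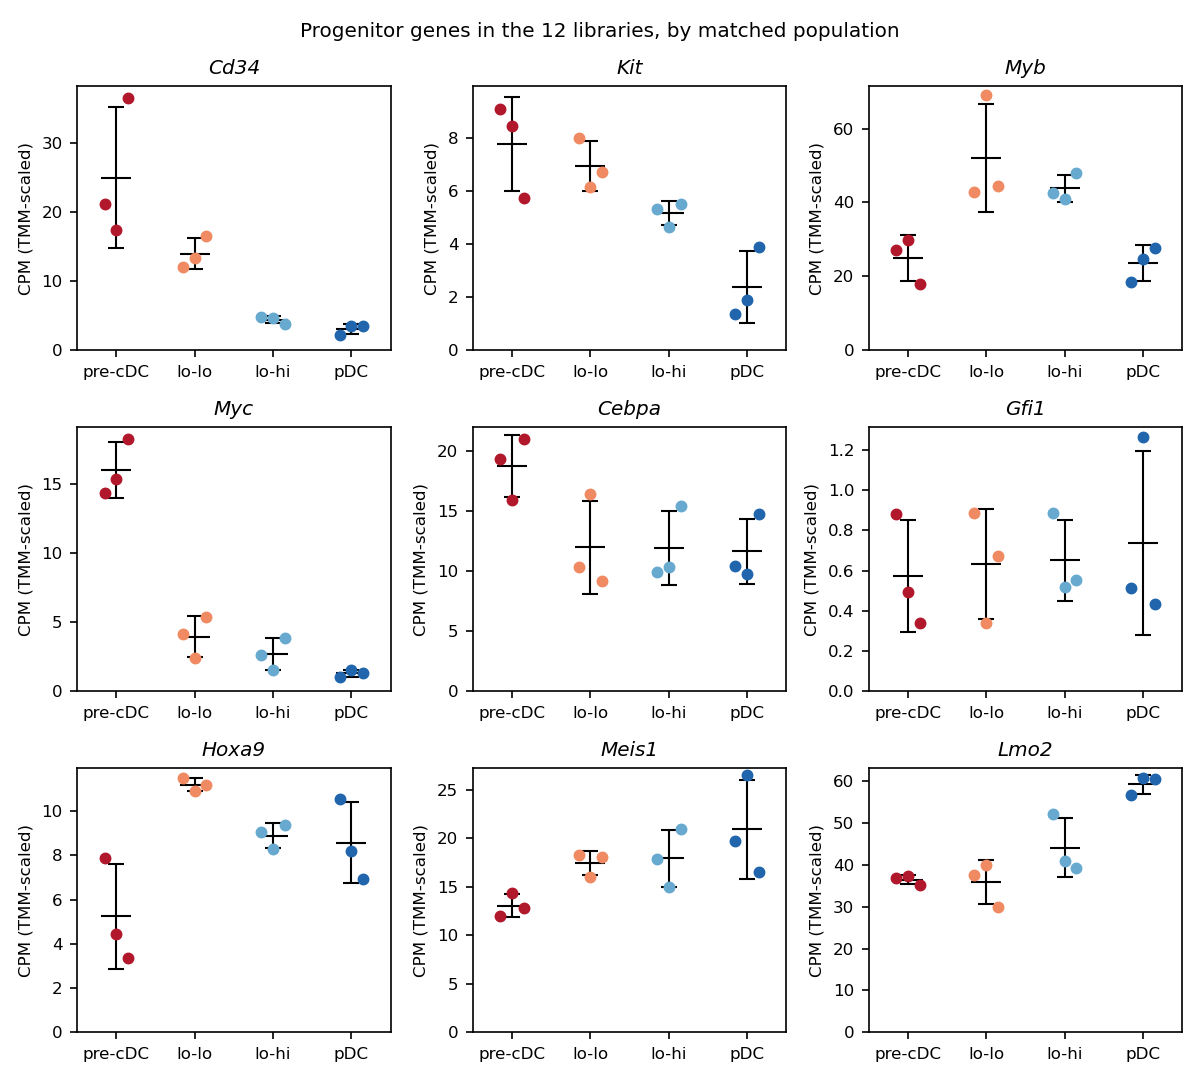
CPM (y axis, linear, a scale of its own in each panel) of the 9 genes in each library (points; replicates 1, 2 and 3 from left to right) of the 4 populations (x axis, by matched well), with the mean (long dash) and the SD (bars) of 3 libraries. Cd34 falls from pre-cDCs to lo-lo cells and again to lo-hi cells, and Myc steps down between pre-cDCs and lo-lo cells. Myb is highest in lo-lo and lo-hi cells, and the 3 pDC libraries lie above all others for Lmo2.

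Sequence upstream of the start was available for 7 of the 9 genes in the RefSeq promoter table of build GRCm38.p6, and was not printed for Myc and Lmo2. The 250 bases before the annotated start are shown for Cd34, Kit and Myb, the 3 of these 7 that changed among the populations, read 5′ to 3′ on the strand of the gene. Capitals mark GGGCGG or its reverse complement, a GC box. The Cd34 sequence spans chr1:194938571-194938820 on the plus strand, that of Kit chr5:75574737-75574986 on the plus strand and that of Myb chr10:21160985-21161234 on the minus strand. For Kit a further window, chr5:75574741-75574990, also with 1 GC box, is listed and not printed. The Cd34 and Kit windows run past the gene starts given below, which come from another annotation. Among the windows not printed, those of Gfi1, Hoxa9 and Meis1 also lie partly or wholly within the gene spans given below.
Cd34: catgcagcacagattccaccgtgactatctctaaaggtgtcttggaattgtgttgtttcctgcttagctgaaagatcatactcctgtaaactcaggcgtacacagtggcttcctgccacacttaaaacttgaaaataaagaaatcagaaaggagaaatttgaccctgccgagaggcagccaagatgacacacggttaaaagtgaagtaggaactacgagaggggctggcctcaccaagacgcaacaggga
Kit: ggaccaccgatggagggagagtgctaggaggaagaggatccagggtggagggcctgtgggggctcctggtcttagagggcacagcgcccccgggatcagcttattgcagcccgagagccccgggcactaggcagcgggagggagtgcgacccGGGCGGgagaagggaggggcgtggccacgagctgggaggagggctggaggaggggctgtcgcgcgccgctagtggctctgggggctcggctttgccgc
Myb: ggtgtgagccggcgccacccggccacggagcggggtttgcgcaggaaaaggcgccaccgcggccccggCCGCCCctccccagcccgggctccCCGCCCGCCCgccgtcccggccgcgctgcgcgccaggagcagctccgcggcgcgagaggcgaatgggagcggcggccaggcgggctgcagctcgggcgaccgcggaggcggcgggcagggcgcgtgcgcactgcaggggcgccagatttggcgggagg
The Cd34 sequence holds 46.4% G and C and 0 GC boxes, that of Kit 70.8% and 1 box, and that of Myb 81.2% and 3 boxes, against a median of 52.4% G and C over all 32851 promoters of the table, of which 32.74% hold the box. Motifs searched on both strands were CACGTG (an E box bound by Myc, in 6.02% of all promoters), CAGGTG (an E box bound by E proteins, 17.22%), TGACAG (a Meis site, 15.86%), TTGCGCAA (a C/EBP site, 0.16%) and GGGCGG. None of the 5 contains another. Beyond the GC box, which the Hoxa9 sequence also holds once, the only match in these genes was 1 CAGGTG in a Gfi1 window. It lies before a RefSeq start but within the gene span given below. A match is a run of letters and not an occupied site.

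Cd34 (ENSMUSG00000016494, chr1:194938819-194961279, plus strand, GRCm38) encodes the surface sialomucin by which progenitors are sorted. It was measured at 21.1, 17.4 and 36.5 CPM in pre-cDC replicates 1, 2 and 3, at 12.1, 13.3 and 16.5 CPM in lo-lo cells, at 4.86, 4.66 and 3.86 CPM in lo-hi cells and at 2.21, 3.48 and 3.47 CPM in pDCs. The 4 ranges did not overlap, and pre-cDC replicate 3 stood well above the other 2 pre-cDC libraries. The mean fell from 25.0 ± 10.1 CPM (SD, n = 3) in pre-cDCs to 3.05 ± 0.73 CPM (SD, n = 3) in pDCs, a difference of -3.11 on the log2 scale (standard error, SE, 0.30, adjusted p = 1e-08) or 8.65-fold. On the log2 scale the largest step was from lo-lo cells (13.98 ± 2.28 CPM) to lo-hi cells (4.46 ± 0.53 CPM). Cd34 was 3.08-fold lower there (log2 difference -1.62, SE 0.31, adjusted p = 0.000808). In CPM the larger fall of the means was that from pre-cDCs to lo-lo cells. Neighbours in the order at either end did not pass, with -0.84 between lo-lo cells and pre-cDCs (SE 0.24, adjusted p = 0.0387) and -0.65 between pDCs and lo-hi cells (SE 0.38, adjusted p = 0.574). With the replicate block, lo-lo cells against pre-cDCs passed (edgeR adjusted p = 0.00728).

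At the step from lo-lo to lo-hi cells Cd34 was the only one of the 9 genes that changed, and 5.17% of all genes tested changed there. Without lo-hi replicate 1, the most deeply sequenced library of its population, this difference was -1.71 with an adjusted p of 0.011. Lower RNA of a gene in a bulk sample can come from fewer cells that express it or from less RNA in each cell, and these cannot be told apart here.

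Kit (ENSMUSG00000005672, chr5:75574916-75656722, plus strand) is the receptor of stem cell factor. Kit was found at 9.08, 8.43 and 5.74 CPM in pre-cDC replicates 1, 2 and 3, at 7.97, 6.14 and 6.70 CPM in lo-lo cells, at 5.30, 4.66 and 5.51 CPM in lo-hi cells and at 1.36, 1.90 and 3.91 CPM in pDCs. All 3 pDC libraries lay below all 9 others, and the ranges of pre-cDCs and lo-lo cells overlapped. These values rest on counts between 6 and 31 per library. The mean was 7.75 ± 1.77 CPM (SD, n = 3) in pre-cDCs, 6.94 ± 0.94 in lo-lo cells, 5.16 ± 0.45 in lo-hi cells and 2.39 ± 1.34 in pDCs. Kit was 3.63-fold lower in pDCs than in pre-cDCs (log2 difference -1.86, SE 0.36, adjusted p = 0.000217) and 3.27-fold lower than in lo-lo cells (-1.71, SE 0.35, adjusted p = 0.000734). No neighbouring pair in the order passed, and the difference between pDCs and lo-hi cells was -1.29 (SE 0.39, adjusted p = 0.089). Without pDC replicate 1 the difference from lo-lo cells was -1.36 (adjusted p = 0.0137) and Kit no longer passed the test among all 4 populations.

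Mast cells and basophils also carry Kit or arise from Kit+ progenitors, and their transcripts were uneven among the pre-cDC libraries. The summed level of the 5 measured markers of these cells that passed the filter was 834.4 and 732.3 CPM in pre-cDC replicates 1 and 2, which are also those with the higher Kit values, and 108.1 CPM in replicate 3, against 45.6 to 192.8 CPM in the other 9 libraries. Of these 5 markers, 0 changed among the populations by edgeR, 4 by DESeq2 and 4 at an unadjusted p under 0.05. By edgeR 19.9% of all genes tested changed. With replicate 3 as the only pre-cDC library, a choice made after the marker sums were seen, the log2 difference of Kit in pDCs against pre-cDCs was -1.48. On the same basis that of Cd34 was -3.69. Replicate 3 had the lowest Kit and the highest Cd34 value of the pre-cDC libraries, so that the direction of both shifts followed from this choice. The part of mast cells and basophils in the Kit values was not tested.

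Myb (ENSMUSG00000019982, chr10:21124935-21160984, minus strand) encodes a transcription factor that progenitors need to proliferate. Its level was 27.2, 29.8 and 17.9 CPM in pre-cDC replicates 1, 2 and 3, 42.8, 68.9 and 44.4 CPM in lo-lo cells, 42.6, 40.9 and 48.0 CPM in lo-hi cells and 18.4, 24.6 and 27.8 CPM in pDCs. The 6 CCR9-lo libraries all lay above the 6 pre-cDC and pDC libraries, lo-lo replicate 2 was the highest of all, and pre-cDCs and pDCs overlapped. Myb was thus the one gene of the 9 that was higher in a precursor than in both end populations by the test. From pre-cDCs (25.0 ± 6.24 CPM, SD, n = 3) to lo-lo cells (52.1 ± 14.6 CPM) it rose 2.09-fold (log2 difference 1.06, SE 0.21, adjusted p = 0.00214), and pDCs (23.6 ± 4.77 CPM) were 2.24-fold below lo-lo cells (-1.16, SE 0.21, adjusted p = 0.000177). Lo-hi cells (43.8 ± 3.69 CPM) were 1.76-fold above pre-cDCs (0.82, SE 0.22, adjusted p = 0.00827). Between pDCs and lo-hi cells the difference of -0.92 (SE 0.22, adjusted p = 0.0203) missed the cutoff, but passed with the replicate block (edgeR adjusted p = 0.00186). Between pDCs and pre-cDCs the difference was -0.10 (SE 0.23, adjusted p = 0.782).

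The differences from pre-cDCs rested on few libraries. For lo-lo cells the adjusted p was 0.0108 without pre-cDC replicate 1, 0.0202 without pre-cDC replicate 3 and 0.0263 without lo-lo replicate 2, with log2 differences of 1.15, 0.86 and 0.82. For lo-hi cells it passed the cutoff with 6 of the 12 libraries left out in turn and missed it with pre-cDC replicate 1 or 3, lo-hi replicate 1, 2 or 3, or pDC replicate 2 left out, with adjusted p from 0.0144 to 0.0788, and it also missed it by DESeq2's Wald test (adjusted p = 0.0146), with DESeq2's size factors (0.0117) and at equal depth (0.02). The difference between pDCs and lo-lo cells passed with each library left out.

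Myc (ENSMUSG00000022346, chr15:61985391-61990374, plus strand) encodes a basic helix-loop-helix factor of growth and metabolism. It was measured at 14.4, 15.4 and 18.2 CPM in pre-cDC replicates 1, 2 and 3, at 4.13, 2.39 and 5.36 CPM in lo-lo cells, at 2.65, 1.55 and 3.86 CPM in lo-hi cells and at 1.02, 1.58 and 1.30 CPM in pDCs. Every pre-cDC library lay above every other library, while lo-lo and lo-hi cells overlapped, as did lo-hi cells and pDCs. In counts, pre-cDC libraries held 49, 31 and 54, whereas lo-hi replicate 2 and pDC replicate 3 held 3 each, the floor of detection. Myc was 3.87-fold lower in lo-lo cells (3.96 ± 1.49 CPM, SD, n = 3) than in pre-cDCs (16.0 ± 2.02 CPM), a log2 difference of -1.95 (SE 0.29, adjusted p = 6.98e-05). At this step 2 of the 9 genes changed, Myc downwards and Myb upwards, against 3.16% of all genes tested.

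In lo-hi cells (2.69 ± 1.15 CPM) Myc was 5.93-fold lower than in pre-cDCs (-2.57, SE 0.33, adjusted p = 2.09e-06), and in pDCs (1.30 ± 0.28 CPM) 12.5-fold lower (-3.64, SE 0.35, adjusted p = 8.86e-09). These 3 differences from pre-cDCs passed with each of the 12 libraries left out. The difference between pDCs and lo-lo cells was -1.69 (SE 0.41, adjusted p = 0.00372), and its adjusted p was 0.0428 without lo-lo replicate 3, 0.032 without pDC replicate 1, 0.011 by DESeq2 and 0.0148 at equal depth. Between neighbours further along, lo-hi and lo-lo cells differed by -0.62 (SE 0.38, adjusted p = 0.425) and pDCs and lo-hi cells by -1.07 (SE 0.47, adjusted p = 0.363), with counts of 3 to 24 per library in these 3 populations.

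Cebpa (ENSMUSG00000034957, chr7:35119293-35121928, plus strand) encodes the C/EBPα factor of myeloid commitment. Cebpa reached 19.3, 15.9 and 20.9 CPM in pre-cDC replicates 1, 2 and 3, 10.3, 16.4 and 9.16 CPM in lo-lo cells, 9.94, 10.4 and 15.4 CPM in lo-hi cells and 10.4, 9.79 and 14.8 CPM in pDCs. Lo-lo replicate 2 reached into the pre-cDC range, and the other 3 populations overlapped each other, with means of 11.96, 11.91 and 11.64 CPM against 18.7 ± 2.59 CPM (SD, n = 3) in pre-cDCs. The test among the 4 populations gave an adjusted p of 0.0537, and pDCs against pre-cDCs -0.73 (SE 0.25, adjusted p = 0.0256).

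Gfi1 (ENSMUSG00000029275, chr5:107716657-107726036, minus strand), a transcriptional repressor that acts in the neutrophil and lymphoid lineages, was barely detected. Its counts were 3, 1 and 1 in pre-cDC replicates 1, 2 and 3, 3, 1 and 3 in lo-lo cells, 4, 1 and 1 in lo-hi cells and 3, 4 and 1 in pDCs. In 10 of the 12 libraries it was at or under the floor of 3 counts, so that no difference between populations was detectable at this depth (adjusted p = 0.992), and no fold change is given.

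Hoxa9 (ENSMUSG00000038227, chr6:52223100-52231089, minus strand) is a homeobox factor of stem cell self-renewal. It was measured at 7.91, 4.46 and 3.38 CPM in pre-cDC replicates 1, 2 and 3, at 11.5, 10.9 and 11.2 CPM in lo-lo cells, at 9.06, 8.28 and 9.37 CPM in lo-hi cells and at 10.6, 8.21 and 6.94 CPM in pDCs. The 3 lo-lo libraries lay above all others and close together, and pre-cDC replicate 1 reached into the pDC range. Lo-lo cells against pre-cDCs gave 1.05 (SE 0.28, adjusted p = 0.0247), and the test among the 4 populations an adjusted p of 0.0406, over the cutoff of 0.01. Without pre-cDC replicate 1, Hoxa9 passed in 3 tests, among the 4 populations and for lo-lo cells and pDCs against pre-cDCs.

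Meis1 (ENSMUSG00000020160, chr11:18879817-19018985, minus strand) encodes the homeobox cofactor of Hoxa9. Its level was 12, 14.4 and 12.8 CPM in pre-cDC replicates 1, 2 and 3, 18.3, 16.0 and 18.1 CPM in lo-lo cells, 17.9, 15 and 20.9 CPM in lo-hi cells and 19.8, 26.5 and 16.5 CPM in pDCs. The pre-cDC libraries lay below all 9 others, which overlapped among themselves. The difference between pDCs (20.9 ± 5.13 CPM, SD, n = 3) and pre-cDCs (13.1 ± 1.21 CPM) was 0.70 with an SE of 0.21 and an adjusted p of 0.0139, and it passed only without pDC replicate 3 among the libraries left out in turn. The test among the 4 populations gave an adjusted p of 0.0874.

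Lmo2 (ENSMUSG00000032698, chr2:103957986-103981878, plus strand) encodes an adaptor that joins Tal1 or Lyl1, E proteins, Ldb1 and Gata factors into 1 complex on DNA. Lmo2 was found at 36.9, 37.2 and 35.1 CPM in pre-cDC replicates 1, 2 and 3, at 37.5, 39.9 and 29.9 CPM in lo-lo cells, at 52.1, 40.9 and 39.1 CPM in lo-hi cells and at 56.5, 60.7 and 60.3 CPM in pDCs. The 3 pDC libraries lay above all others, lo-hi replicate 1 came next, and pre-cDCs and lo-lo cells overlapped. By the test Lmo2 rose towards pDCs, 1.62-fold from pre-cDCs (log2 difference 0.70, SE 0.17, adjusted p = 0.00192) and 1.66-fold from lo-lo cells (0.73, SE 0.16, adjusted p = 0.00167). Between pDCs (59.2 ± 2.28 CPM, SD, n = 3) and lo-hi cells (44.0 ± 7.05 CPM) it differed by 0.40 (SE 0.16, adjusted p = 0.303).

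The Lmo2 calls lay close to the cutoff. Against pre-cDCs the adjusted p was 0.0106 without pre-cDC replicate 1, 0.0132 without pre-cDC replicate 3, 0.0142 without pDC replicate 2 and 0.0301 at equal depth, and against lo-lo cells it was 0.0326 without lo-lo replicate 3, 0.0142 without pDC replicate 2 and 0.0732 at equal depth. Without lo-lo replicate 3 or pDC replicate 2, Lmo2 also missed the cutoff among all 4 populations. With pre-cDC replicate 3 as the only pre-cDC library the log2 difference between pDCs and pre-cDCs was 0.70. Over 14936 bases the gene overlaps 4931422A03Rik on the opposite strand, which has a mean count of 4.75 against 144.3 for Lmo2. The strand setting of the counting was not given in the sources used here, so that reads from such partners cannot be told apart, and this also holds for the antisense partners of Cd34, Myb, Cebpa, Gfi1 and Meis1.

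Read by comparison, pDCs against pre-cDCs changed 4 of the 9 genes (Cd34, Kit and Myc lower, Lmo2 higher) and 21.7% of all genes tested, of which 11.4% of all genes were higher and 10.4% lower. Lo-hi cells against pre-cDCs changed 3 (Cd34 and Myc lower, Myb higher) against 13.1% of all genes. For pDCs against lo-lo cells it was 5 (Cd34, Kit, Myb and Myc lower, Lmo2 higher) against 13.8%. Between pDCs and lo-hi cells 0 of the 9 passed by edgeR or DESeq2 without the replicate block, while 0.961% of all genes passed by edgeR. Kit, Myb, Myc and Lmo2 had an unadjusted p under 0.05 there, and Myb passed with the block. The comparisons share populations, so that these counts are not independent of each other.

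**Figure D2:**
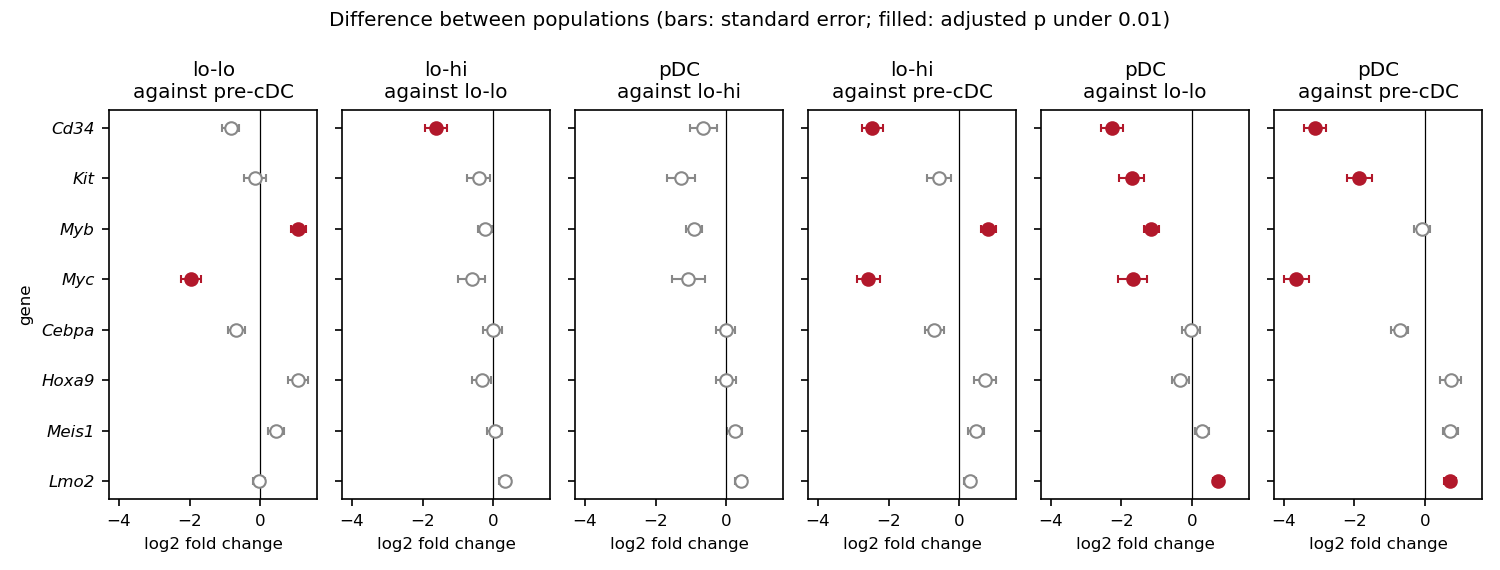
Log2 fold change (x axis, first-named population over the second) of 8 of the 9 genes (y axis, Gfi1 left out for its counts of 1 to 4) in the 6 comparisons, with bars for the standard error. Filled points have an adjusted p under 0.01: Cd34 is filled in 4 panels, Myc in 4, Myb in 3, Kit in 2, Lmo2 in 2, and the panel of pDCs against lo-hi cells has none.

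The same tests were run under the deposited labels. With libraries grouped by label, 0 of 15293 genes and 0 of the 9 passed edgeR's test among the 4 labelled groups, with a smallest adjusted p of 0.521 over all genes, and 166 genes but 0 of the 9 had an unadjusted p under 0.05 by edgeR, the one tool used for this grouping. The same count of 0 held in each of the 6 comparisons between labelled groups, where 138 to 344 genes and 0 of the 9 had an unadjusted p under 0.05. Under its label each group mixes high and low libraries, so that Cd34 was 12.7 ± 8.13 CPM (SD, n = 3) in the libraries labelled pre-cDC, 10.96 ± 7.84 in those labelled lo-lo, 14.9 ± 18.7 in those labelled lo-hi and 7.95 ± 7.43 in those labelled pDC. In the 4 wells where label and match name the same population, 1 per population and thus with no test, Cd34 stood at 21.1, 13.3, 4.66 and 3.47 CPM in pre-cDCs, lo-lo cells, lo-hi cells and pDCs. In the same 4 wells and order, Myc stood at 14.4, 2.39, 1.55 and 1.30 CPM. Myb stood there at 27.2, 68.9, 40.9 and 27.8 CPM, Kit at 9.08, 6.14, 4.66 and 3.91 CPM and Lmo2 at 36.9, 39.9, 40.9 and 60.3 CPM, the order of means seen with all 12 libraries for Cd34, Kit and Myc.

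**Figure D3:**
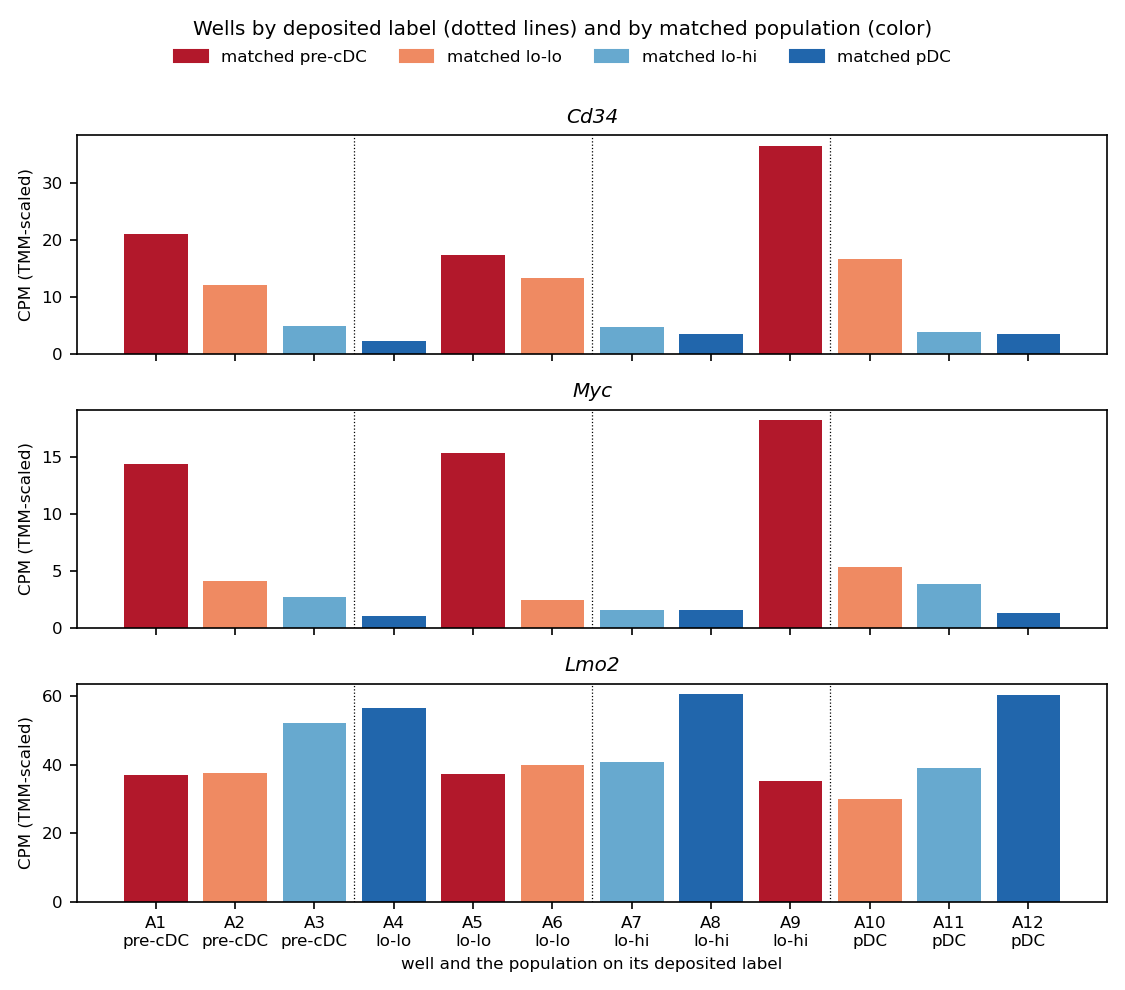
CPM (y axis, linear from 0) of Cd34, Myc and Lmo2 in the 12 wells (x axis, with the population on the deposited label; dotted lines divide the labelled groups), colored by matched population. Tall Cd34 and Myc bars recur at wells A1, A5 and A9, and tall Lmo2 bars at A4, A8 and A12, across the labelled groups.

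Markers of the matched populations were also followed. All 8 markers of pre-cDCs, such as Zbtb46, Csf1r and Batf3, were lower in pDCs than in pre-cDCs, and all 9 markers of pDCs, such as Siglech, Ccr9 and Klra17, were higher. Of all genes tested, 10.4% were lower and 11.4% higher there. Of the markers, 5 and 4 are among the 28 factors of the match and are no check of it, while Csf1r, Siglech, Ccr9 and Klra17 are not among them. The paper names all of these markers from the same libraries. Their direction thus gives no independent check of the populations. Ccr9, the chemokine receptor used in the gate, averaged 33.0 CPM in pre-cDCs, 66.0 in lo-lo cells, 230.5 in lo-hi cells and 460.5 in pDCs. Transcripts used as markers of other marrow cells were found in all libraries, and whether they came from such cells was not tested. For the counts that follow, 19.9% of all genes tested changed among the 4 populations by edgeR. Summed markers of granulocytes ran from 3267 to 20720 CPM and those of erythroid cells from 4717 to 18460 CPM, with 0 of 10 and 0 of 9 genes changed among the populations by edgeR, 1 and 0 by DESeq2 and 1 and 0 at an unadjusted p under 0.05. Monocyte markers summed to 2124 to 3319 CPM, with Ccr2 and F13a1 of 8 changed, both highest in pre-cDCs. Most of this sum was Ly6c2, which averaged 2201 CPM in pre-cDCs, 1956 in lo-lo cells, 2471 in lo-hi cells and 2735 in pDCs. The paper found surface Ly6C on the sorted CCR9-lo cells, at a higher level where B220 was higher. Markers of B lineage cells summed to 109.9 to 145.8 CPM in pre-cDCs and lo-lo cells and to 200.7 to 304 CPM in lo-hi cells and pDCs, with Cd79b and Dntt of 10 changed. Markers of megakaryocytes (12.2 to 147.1 CPM, 5 tested) and of T and NK cells (11.3 to 58.9 CPM, 6 tested) had 0 genes changed by edgeR or DESeq2 and 1 each at an unadjusted p under 0.05. No measured marker was at 0 in all libraries, and the part of these cells in the values of the 9 genes was not tested.

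Beside the progenitor genes, proliferation genes changed. All 20 listed genes of DNA replication and mitosis were lower in lo-hi than in lo-lo cells, with a median log2 difference of -1.23 against 0.01 over all genes tested, where 2.83% of all genes were lower and 2.33% higher. All 20 were lower in pDCs than in pre-cDCs (median -2.59 against 0.05), where 10.4% of all genes were lower. Between lo-lo cells and pre-cDCs 0 of 20 changed by edgeR or DESeq2 and 2 had an unadjusted p under 0.05 (median -0.05 against 0.04). Of all genes tested, 3.16% changed there by edgeR. Top2a, the topoisomerase of dividing cells, averaged 395.4 CPM in pre-cDCs, 503.8 in lo-lo cells, 184.5 in lo-hi cells and 67.2 in pDCs. The summed level ran from 2070 to 2704 CPM in pre-cDCs, from 2391 to 2592 in lo-lo cells, from 955.5 to 1245 in lo-hi cells and from 437.5 to 532.8 in pDCs. From lo-hi cells to pDCs the median difference was -1.25 against 0.03 over all genes, with 11 of 20 lower, where 0.961% of all genes changed in either direction. Cd34 was lower at the step from lo-lo to lo-hi cells, as these genes were, but did not pass at the step from lo-hi cells to pDCs. Its pre-cDC libraries also all lay above its lo-lo libraries (log2 difference -0.84, edgeR adjusted p = 0.0387), a step at which 0 of the 20 genes changed. Myc had its largest drop between pre-cDCs and lo-lo cells, whose proliferation sums overlap, and the Myb ranges of lo-hi and lo-lo cells overlapped where the sums did not. Like the 20 genes, both were lower in pDCs than in lo-lo cells by edgeR (Myc -1.69, adjusted p = 0.00372, and Myb -1.16, adjusted p = 0.000177). The part of cycling cells in the values of the 9 genes was not tested.

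**Figure D4:**
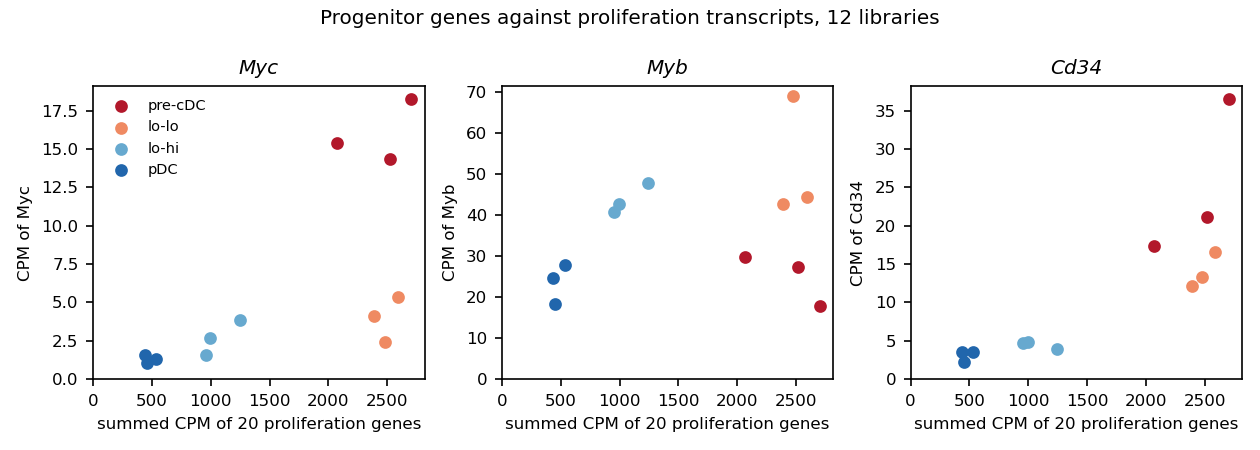
CPM of Myc, Myb and Cd34 (y axes, linear from 0) against the summed CPM of 20 proliferation genes (x axis) in the 12 libraries, colored by matched population. Pre-cDC and lo-lo libraries share the range of 2070 to 2704 on the x axis. The 3 pre-cDC points lie above the lo-lo points for Myc and Cd34 and below them for Myb.

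Genes that work with the 9 were taken from lists, which were also chosen with earlier results of these data known. Among surface proteins and cytokine receptors of stem and progenitor cells, 8 of 13 tested changed among the 4 populations, against 19.9% of all genes. In pDCs against pre-cDCs, counted separately, 4 were higher (Ly6a, Il7r, Csf2rb and Procr) and 4 lower (Csf1r, Cd9, Cd48 and Cd93), against 11.4% and 10.4% of all genes, with a median log2 difference of -0.90 against 0.05. Procr did not pass among the 4 populations (adjusted p = 0.0258) and averaged 0.17 CPM in pre-cDCs, under the floor, while Cd27 passed there (adjusted p = 0.000208) but not between pDCs and pre-cDCs. Ly6a, which encodes the stem cell antigen Sca-1, was measured at 102.8, 144.8 and 108.1 CPM in pre-cDCs, at 148.2, 156.6 and 107.6 in lo-lo cells, at 506.6, 492 and 274.5 in lo-hi cells and at 984.3, 791.9 and 557.1 in pDCs. It thus ran opposite to Cd34 and Kit, with a step at the place of the largest log2 step of Cd34 (lo-hi against lo-lo 1.63, SE 0.25, adjusted p = 0.000443). For pDCs against pre-cDCs the Ly6a difference was 2.72 (SE 0.26, adjusted p = 5.4e-07). Il7r, the interleukin-7 receptor chain of lymphoid progenitors, averaged 23.8 CPM in pre-cDCs, 71.9 in lo-lo cells, 137.3 in lo-hi cells and 152.5 in pDCs (2.70 between pDCs and pre-cDCs, SE 0.19, adjusted p = 7.54e-11). Csf1r, the receptor of M-CSF and also one of the pre-cDC markers, averaged 89.9, 39.1, 13.2 and 7.32 CPM in the same order (-3.63, SE 0.22, adjusted p = 8.38e-12). Cd9, a tetraspanin, averaged 30.8, 14.5, 12.7 and 4.76 CPM (-2.65, SE 0.38, adjusted p = 3.95e-05).

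Among partners of Lmo2 and other transcription factors of blood stem cells, 5 of 15 tested changed among the 4 populations, against 19.9% of all genes. In pDCs against pre-cDCs 2 were higher and 2 lower, shares close to the 11.4% and 10.4% of all genes (median -0.18). Lyl1, a helix-loop-helix partner of Lmo2, took the opposite course to Lmo2, from 52.8 CPM in pre-cDCs through 31.8 and 23.0 to 18.3 CPM in pDCs (-1.54, SE 0.19, adjusted p = 3.42e-07). Tcf12, the E protein HEB, rose from 31.0 CPM in pre-cDCs through 66.1 and 90.0 to 100.2 CPM in pDCs (1.69, SE 0.21, adjusted p = 6.99e-07). Ikzf2, which encodes Helios, averaged 8.95 CPM in pre-cDCs and 20.2 CPM in pDCs (1.13, SE 0.30, adjusted p = 0.00546). Runx1, the core binding factor of definitive hematopoiesis and one of the 28 factors of the match, was highest in lo-lo cells at 105.9 CPM, against 72.1 CPM in pre-cDCs, 62.9 in lo-hi cells and 34.6 in pDCs.

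Among Hoxa genes and TALE cofactors, 5 of 12 tested changed among the 4 populations, against 19.9% of all genes. Hoxa7, Hoxa3 and Mn1 were higher and Pbx3 was lower in pDCs than in pre-cDCs, against 11.4% and 10.4% of all genes (median 0.60). Hoxa7 was measured at 26.4, 17.4 and 19.9 CPM in pre-cDCs, at 37.2, 37.9 and 41.5 in lo-lo cells, at 62.3, 63.6 and 51.8 in lo-hi cells and at 63.9, 68.5 and 67.7 in pDCs. The lowest pDC library lay just above the highest lo-hi library, and the difference between pDCs and pre-cDCs was 1.63 (SE 0.18, adjusted p = 5.05e-08), where Hoxa9 with 0.71 (SE 0.29, adjusted p = 0.0645) did not pass. Mn1, a coregulator that acts with Meis1 and Hoxa9 in leukemia, averaged 2.54 CPM in pre-cDCs and 9.19 CPM in pDCs (1.82, SE 0.35, adjusted p = 0.00018). Pbx3, a TALE cofactor of Hox proteins, averaged 4.32 CPM in pre-cDCs and 0.47 CPM in pDCs, the latter under the floor of detection. Meis3 averaged 1.85 CPM in pre-cDCs, 0.76 in lo-lo cells, 1.39 in lo-hi cells and 4.91 in pDCs, and its difference between pDCs and pre-cDCs (1.59, SE 0.51, adjusted p = 0.0184) did not pass.

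In the Myc network, 3 of 11 tested genes changed among the 4 populations, a share close to the 19.9% of all genes. In pDCs against pre-cDCs 2 were higher and 1 lower, against 11.4% and 10.4% of all genes (median 0.39). Mycl, the Myc paralog of DCs, averaged 26.4 CPM in pre-cDCs, 35.0 in lo-lo cells, 48.5 in lo-hi cells and 52.5 in pDCs (0.998, SE 0.16, adjusted p = 2.49e-05), opposite in direction to Myc. Mxd4, which competes with Myc for Max, averaged 24.9, 29.8, 74.3 and 96.3 CPM in the same order (1.96, SE 0.20, adjusted p = 2.47e-08), with the rise at the step from lo-lo to lo-hi cells (1.33, SE 0.20, adjusted p = 5.56e-05). Mxd3, a relative found in cycling cells, averaged 40.2, 28.1, 8.05 and 4.31 CPM and was lower in pDCs by the test (-3.32, SE 0.33, adjusted p = 1.04e-07). Of 19 tested target genes of Myc, 6 changed among the 4 populations, against 19.9% of all genes. In pDCs against pre-cDCs, counted separately, 5 were lower and 1 higher, against 10.4% and 11.4% of all genes (median -0.29). The counts hold different genes, since Nop58 passed only the former and Ldha only the latter.
Ran, a GTPase of nuclear transport, averaged 367.1 CPM in pre-cDCs and 123.8 CPM in pDCs (-1.56, SE 0.18, adjusted p = 1.39e-07), Cdk4, a kinase of the G1 phase, 163.1 and 85.4 CPM (-0.93, SE 0.18, adjusted p = 0.000288), and Hspd1, a mitochondrial chaperone, 73.1 and 40.3 CPM (-0.84, SE 0.18, adjusted p = 0.000525). Tfrc, the transferrin receptor, went the other way, with 73.4 CPM in pre-cDCs, 162.8 in lo-lo cells and 126.2 in pDCs (0.78, SE 0.18, adjusted p = 0.00148).

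Among 8 relatives of Myb and C/EBPα, 2 changed among the 4 populations, a share close to the 19.9% of all genes. In pDCs against pre-cDCs 3 were lower (Mybl2, Cebpd and Cebpb), against 10.4% of all genes (median -0.98). Mybl2, the Myb relative of dividing cells, averaged 4.27 CPM in pre-cDCs, 6.45 in lo-lo cells, 3.61 in lo-hi cells and 0.97 in pDCs (-1.99, SE 0.51, adjusted p = 0.00362). Cebpd averaged 35.4, 24.4, 27.2 and 15.6 CPM in the same order (-1.16, SE 0.19, adjusted p = 3.6e-05). Of the 7 tested relatives and cofactors of Gfi1 and the 14 tested genes of Kit signalling, 0 passed the test among the 4 populations by edgeR or DESeq2 and 2 and 3 had an unadjusted p under 0.05. By edgeR 19.9% of all genes passed this test. The medians between pDCs and pre-cDCs were -0.30 and -0.04, against 0.05 over all genes.

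The genes most like each of the 9 in their course over the 12 libraries were named by Pearson's r of log2(CPM + 1), over the 10808 genes that averaged 10 counts or more per library. The libraries of 1 population share their sort, so that r mostly describes the 4 population levels. Cd34 was most like Atic, Gapdh and Hist1h2bc (r = 0.98 each, n = 12). Among the 3 genes most like Myc were Lasp1 (0.98) and Emilin2 (0.97), and Myb was most like Sox4 (0.94), Marcks (0.93) and Auts2 (0.92). For Lmo2 they were Socs3 (0.96), Acadsb (0.96) and Ifi213 (0.94), and for Kit Mir5136, Dock5 and Cpd (0.95 each). The 4 genes that did not pass the test had lower values, with Trmt2a at 0.90 for Hoxa9, Dcaf5 at 0.89 for Meis1, Acss2 at 0.86 for Gfi1 and Ltbr at 0.84 for Cebpa as the most alike. Among the 9 themselves, the highest r was 0.88 between Cd34 and Myc and the lowest -0.79 between Cd34 and Lmo2, while Cd34 and Myb had an r of 0.0002.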

How the data were processed

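RNA of 12 SCRB-seq libraries of BM cells was measured. Reads were processed with zUMIs, mapped with STAR to mm10 and assigned to Ensembl genes of GRCm38. The authors deposited integer counts for each gene in each well, not normalized, and whether these are reads or molecular identifiers was not given in the sources used here. Positions are those of GENCODE vM21 (GRCm38), and 21410 identifiers had a symbol. Wells were assigned to populations by the rank match described above. Genes averaging 1 count or more were tested (15293, with 6461 left out) by edgeR 4.0.16 (R 4.3.3), with TMM scaling, robust quasi-likelihood, all 12 libraries in 1 fit and Benjamini-Hochberg adjustment at 0.01. The study used DESeq2's likelihood ratio test. Equal depth means 1 random thinning to the smallest total. The steps were tested on simulated data. The 9 genes and all lists were chosen with earlier results of these data known. Named from each list were up to 4 genes with the largest range of population means among those changed, and Csf2rb, Procr, Cd27, Cd48, Cd93, Hoxa3, Nop58, Ldha and Cebpb were named after their values were seen. Alternatives were DESeq2 1.42.0, its size factors, no filter, a cutoff of 0.05, equal depth, the replicate block, the labels as groups (with and without the block), fits of 6 libraries and each library left out. Some items are not reported here.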

Additional observations from a re-analysis of the deposited data

How the results depend on the processing

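With the wells grouped by the match, the 15 differences of single genes past the cutoff kept their direction under every setting tried on them (18 for the 9 differences from pre-cDCs, 17 for the other 6). With the deposited labels as groups, 8 kept their sign and 7 turned, with log2 differences of 0.53 and 0.26 for Cd34 in lo-hi cells against lo-lo cells and pre-cDCs, 0.14 for Kit, 0.04 for Myb and -0.06 for Lmo2 in pDCs against lo-lo cells, and -0.45 for Myb and 0.07 for Myc in lo-hi cells against pre-cDCs, none past the cutoff. DESeq2's size factors moved the median of all genes by at most 0.0494. For genes, then for the 9, leaving out each library gave 2412 to 3334 and 4 to 6 among the 4 populations, 280 to 657 and 1 to 3 for lo-lo cells against pre-cDCs, 378 to 946 and 0 to 1 for lo-hi against lo-lo cells, 65 to 211 and 0 to 1 for pDCs against lo-hi cells, 2502 to 3556 and 3 to 5 for pDCs against pre-cDCs, 1569 to 2343 and 3 to 5 for pDCs against lo-lo cells, and 1378 to 2340 and 2 to 3 for lo-hi cells against pre-cDCs. With no filter, 733 genes were called for lo-lo cells against pre-cDCs, and 344 genes with 1 of the 9 (Myb) for pDCs against lo-hi cells. With a cutoff of 0.05 these were 907 genes with 4 of the 9 (Cd34, Hoxa9, Myb and Myc), and 327 genes with 1 (Myb), and 1321, 3332 and 3063 genes were called for lo-hi against lo-lo cells, pDCs against lo-lo cells and lo-hi cells against pre-cDCs. At equal depth 1646 genes and 3 of the 9 (Cd34, Kit and Myb) were called for pDCs against lo-lo cells, against 2108 genes and 5 of the 9 in the main fit. In fits of the 6 libraries compared, 1 of the 9 (Myc) was called for lo-lo cells against pre-cDCs, 1191 genes for lo-hi against lo-lo cells and 1 of the 9 (Myb) for pDCs against lo-hi cells. With the deposited labels as groups, with or without the replicate number on the labels as a block, 0 genes and 0 of the 9 were called in every comparison. The cause of these shifts was not tested, beyond the grouping, cutoff, filter and library number that define them.

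Libraries with the same replicate number of the matched samples deviated from their population means with an average correlation of 0.13 over 18 pairs (-0.18 to 0.35), against -0.07 over 36 pairs with different numbers, and 11 of the 12 correlated best with their own number. The average and the best matches thus went with the same number, but not every pair was over 0.1 and no label ties a number to a mouse. The main fit did not take the numbers as pairs, and its results for genes near the cutoff depend on this choice. With the replicate block, 743 genes and 4 of the 9 (Cd34, Hoxa9, Myb and Myc) were called for lo-lo cells against pre-cDCs and 346 genes and 1 of the 9 (Myb) for pDCs against lo-hi cells, Meis1 was added for pDCs against pre-cDCs (adjusted p = 0.00971; 0.00728 for Cd34 and 0.00747 for Hoxa9 in lo-lo cells against pre-cDCs, 0.00186 for Myb in pDCs against lo-hi cells), and all 15 differences stayed past the cutoff. Depth limits Gfi1 (counts of 1 to 4) and Myc outside pre-cDCs (counts of 3 to 24).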
